A study of Homo sapiens with 4 samples.

Results

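The genes described here are 10 factors and classical targets of the YAP and TEAD transcription complex, measured in ES2, an ovarian cancer cell line of human origin. They are the factor genes YAP1, WWTR1 and TEAD1, the feedback regulators LATS2, AMOTL2 and AJUBA, and the targets ANKRD1, CTGF, CYR61 and AXL. Members were found by gene symbol among the 23228 genes of the count tables. Under these names 9 were listed, and AJUBA was listed under its older symbol JUB, so all 10 were found and all 10 had enough counts to be tested. The set was put together because ANKRD1 had the lowest p of all genes when EC359 was compared with vehicle, ahead of PGK1 and BNIP3. The comparison of treatments is therefore a description for these 10 genes, and the values of the fit that stand beside them support no claim about the set.

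RNA came from ES2 cells given the LIFR inhibitor EC359 at 10 nM, or vehicle (0.1% DMSO), for 12 h, with 2 libraries per treatment of cells grown in RPMI with serum. EC359 blocks the receptor of leukemia inhibitory factor (LIF), and the study asked which genes respond to it. The values describe 1 cell line at 1 dose and 1 time point, and no genetic change of LIFR, YAP1 or TEAD1 was part of these samples. The study calls the samples of a treatment biologically independent, while the labels do not say whether they were separate cultures. The p-values rest on the spread between these samples. For each gene the fit draws that spread toward the spread of the other tested genes, with 8.28 prior degrees of freedom. Reads counted on genes numbered 25603886 and 25572494 in the vehicle libraries and 31707553 and 29914788 in the EC359 libraries. Both EC359 libraries were thus deeper than both vehicle libraries. The 10 genes took from 0.487% to 0.52% of the reads counted on genes. Of the epithelial markers, KRT18 and KRT7 stood at 182 and 169 RPKM with vehicle (read counts divided by library size and transcript length), while EPCAM, CDH1 and MUC16 had at most 2 reads in any library. PAX8 and WT1, markers of Mullerian and ovarian tumour tissue, were at 0.258 and 1.18 RPKM. The mesenchymal marker VIM was at 2540 RPKM, and each of 6 blood and vessel markers had at most 2 reads in any library. LIFR itself was at 5.04 RPKM with vehicle. In RNA of whole cultures, less RNA in every cell and fewer cells that hold it cannot be told apart.

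YAP1 and its paralog TAZ, the product of WWTR1, are coactivators without a DNA-binding domain of their own. They enter the nucleus when the Hippo kinases, MST1 and MST2 followed by LATS1 and LATS2, are less active, and there they bind TEAD proteins, which recognise the DNA core CATTCC. Among the target genes are LATS2, AMOTL2 and AJUBA, whose products act back on the pathway, and CTGF, CYR61 and ANKRD1, which are widely used as readouts of YAP activity. Much of this control acts on the proteins through phosphorylation and location, and RNA counts do not measure it.

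The RefSeq promoter windows of the targets show where the TEAD core stands. Each window holds 250 bases before and 50 bases after an annotated transcription start on GRCh38.p14, and 8 of the 10 members have at least 1 window in that table. Those without are CYR61 and TEAD1. A match of CATTCC on either strand was present in 7 of 12 windows (58.3%) of the members, in 1 window each of 7 genes, and in 14% of all 35116 windows. Of 20 further YAP targets, 13 had a window, and a match was present in 5 of their 15 windows (33.3%). ANKRD1 and CTGF, which had the most matches among the members, are printed with AMOTL2 and with THBS1, a further target described later. Sequences run 5′ to 3′ along the gene, and capitals mark CATTCC or its reverse complement GGAATG.
ANKRD1, chr10:90921038-90921337, minus strand: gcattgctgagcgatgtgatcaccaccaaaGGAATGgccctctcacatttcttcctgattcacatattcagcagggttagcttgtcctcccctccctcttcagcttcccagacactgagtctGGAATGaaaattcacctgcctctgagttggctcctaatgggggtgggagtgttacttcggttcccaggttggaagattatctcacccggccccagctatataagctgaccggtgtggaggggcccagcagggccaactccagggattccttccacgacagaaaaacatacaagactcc
CTGF, chr6:131951323-131951622, minus strand: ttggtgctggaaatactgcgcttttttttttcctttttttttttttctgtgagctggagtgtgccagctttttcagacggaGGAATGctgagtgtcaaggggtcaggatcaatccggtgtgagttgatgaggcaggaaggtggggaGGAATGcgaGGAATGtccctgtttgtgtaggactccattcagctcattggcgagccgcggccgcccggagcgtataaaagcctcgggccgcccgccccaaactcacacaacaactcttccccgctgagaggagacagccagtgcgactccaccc
AMOTL2, chr3:134374398-134374697, minus strand: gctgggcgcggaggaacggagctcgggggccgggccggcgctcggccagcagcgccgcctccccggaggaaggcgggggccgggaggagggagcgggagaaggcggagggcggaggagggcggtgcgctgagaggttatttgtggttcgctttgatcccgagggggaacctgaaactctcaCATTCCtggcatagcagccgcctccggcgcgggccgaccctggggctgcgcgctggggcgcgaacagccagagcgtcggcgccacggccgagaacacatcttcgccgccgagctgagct
THBS1, chr15:39580829-39581128, plus strand: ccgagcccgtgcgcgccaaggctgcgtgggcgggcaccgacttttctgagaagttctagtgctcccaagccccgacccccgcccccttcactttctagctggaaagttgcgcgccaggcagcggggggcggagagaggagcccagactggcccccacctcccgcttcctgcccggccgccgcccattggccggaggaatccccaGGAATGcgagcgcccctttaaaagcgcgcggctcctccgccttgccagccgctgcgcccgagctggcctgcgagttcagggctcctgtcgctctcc
CTGF held 3 matches, beginning 169, 104 and 95 bases before the start, and 0.128% of all windows held 3 or more. ANKRD1 held 2, at 220 and 128 bases before the start. AMOTL2 had 1 match, 69 bases before the start of the second of its windows, and THBS1 had 1 at 46 bases. YAP1, LATS2, AJUBA and AXL had 1 match each. In WWTR1 the letters were not found in either of its 2 windows. Of other motifs searched on both strands, AP-1 (TGANTCA) occurred once in the window of ANKRD1 and in no other member, against 7.71% of all windows. STAT (TTCNNNGAA) was found in no member window and in 7.66% of all windows, and once in THBS1. The CArG box, which SRF binds, was found in no member window and in 1.29% of all windows. No motif shared letters with a TEAD match in ANKRD1. These matches describe letters in the windows, not bound sites.

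Levels in vehicle-treated cells are given here without a comparison of treatments. The vehicle libraries are also part of the contrast that chose the set, so these levels are a description. Per length of transcript, CYR61 was the most abundant of the 10 genes at 500 and 483 RPKM in vehicle replicates 1 and 2, followed by CTGF at 405 and 404 and ANKRD1 at 245 and 234. YAP1 stood at 173 and 166 RPKM, AXL at 129 and 130, AMOTL2 at 91.8 and 101 and AJUBA at 38.5 and 39.3. TEAD1 was at 20.3 and 19.5 RPKM, WWTR1 at 14 and 13.7, and LATS2 was lowest at 3.67 and 4.12. No 2 neighbours in this order overlapped between the vehicle libraries, and the order was the same in both EC359 libraries. Among tested genes with a known length, the mean vehicle level of CYR61 lay at percentile 99.4, that of CTGF at 99.1 and that of ANKRD1 at 98.1. By contrast, LATS2 lay at percentile 30.8 and WWTR1 at 59.5.

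**Figure D1:**
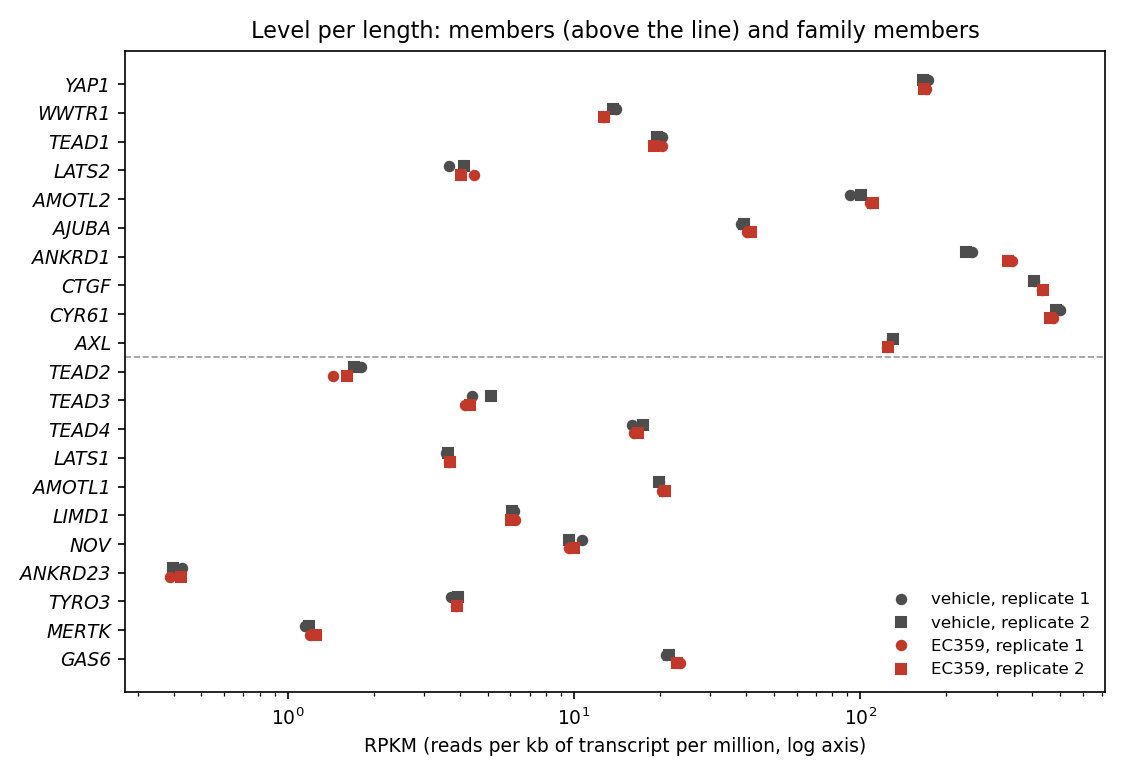
Level of each member and of related genes in the 4 libraries, as RPKM on a log axis, with vehicle in grey and EC359 in red and the 2 replicates as circles and squares. CYR61, CTGF and ANKRD1 lie between 234 and 500 RPKM in every library, while WWTR1 and LATS2 lie at or below 14.

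Of the 10 members, 1 passed an adjusted p under 0.01 in the comparison of EC359 with vehicle, and it was higher. Over all 12706 tested genes, 1.09% passed, with 0.299% higher (38 genes) and 0.795% lower (101 genes). Scaling by total counts alone gave 52 higher and 69 lower over all genes, and again 1 member, which was higher. At an adjusted p under 0.05 there were 2 members higher and 0 lower, beside 1.68% and 2.64% of all tested genes, and at an unadjusted p under 0.05 there were 3 higher and 2 lower, beside 10.7% and 11%. The median log2 fold change of the members was 0.030, beside 0.003 over all tested genes, with 5 members above 0 and 5 below. Both EC359 libraries lay above both vehicle libraries in 4 members and below them in 3, while 26.1% and 25.4% of all tested genes had these separations. Since the set was chosen from this contrast, nothing is read from these counts.

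**Figure D2:**
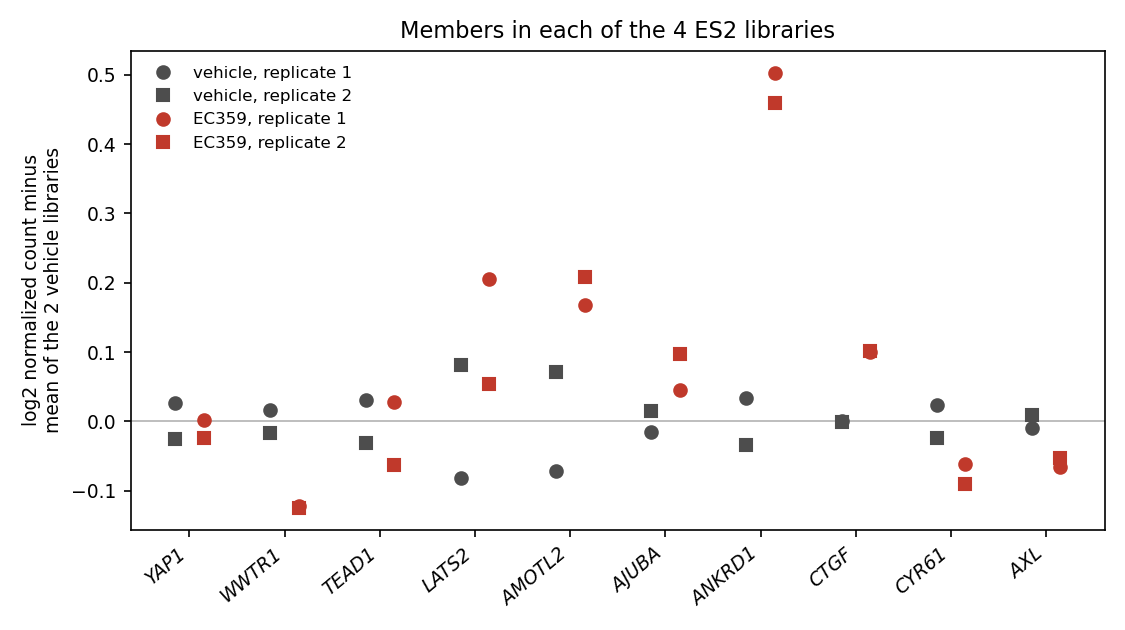
Normalized count of each member in each library on the log2 scale, minus the mean of the 2 vehicle libraries. In both EC359 libraries ANKRD1 lies farther from the vehicle mean than any of the other 9 members does in an EC359 library.

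ANKRD1 encodes a nuclear ankyrin repeat protein, first known from heart muscle as a cofactor that responds to stretch. Its position is 92671853 to 92680844 on chromosome 10 (GRCh37). Normalized counts, which are counts at the mean library size, were 12357 and 11797 in the vehicle libraries and 17114 and 16594 in the EC359 libraries. Both EC359 libraries were well above both vehicle libraries, by several times the difference within either treatment. The vehicle mean was 12077 ± 396 and the EC359 mean 16854 ± 367 (SD, n = 2 each), a level 1.4 times as high (log2 fold change 0.48, standard error 0.034, with edgeR's quasi-likelihood test giving an adjusted p of 0.000418). None of the 50-base windows of its transcript occur in annotated transcripts of other genes. Without EC359 replicate 1 its log2 fold change was 0.46 and without EC359 replicate 2 it was 0.50, and in both fits the call was lost (adjusted p = 0.275 and 0.168). Without vehicle replicate 1 or 2 the values were 0.52 and 0.44, in fits whose spread comes from the EC359 pair alone and takes the lone vehicle library to vary like it.

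CTGF and CYR61 encode secreted matricellular proteins of the CCN family, which bind integrins and growth factors. CTGF (chromosome 6 of GRCh37, from 132269316 to 132272512) had 26698 and 26674 normalized counts in the vehicle libraries and 28592 and 28644 in the EC359 libraries. The treatments did not overlap, yet the difference was small (log2 fold change 0.10, standard error 0.028, adjusted p = 0.0704) and the gene was not called. With the trend of each library against GC content removed, CTGF was called at a log2 fold change of 0.13 (adjusted p = 8.12e-05). That fit called 1090 of the 12706 tested genes. CYR61 (chromosome 1 of GRCh37, from 86046444 to 86050272) had 32116 and 31049 normalized counts in the vehicle libraries and 30273 and 29654 in the EC359 libraries. Here both EC359 libraries lay below both vehicle libraries, with a log2 fold change of -0.08 (standard error 0.030, adjusted p = 0.182) and no call.

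Ratios of raw counts within a library do not depend on any scaling factor. The ratio of ANKRD1 to CYR61 was 0.385 and 0.38 with vehicle and 0.565 and 0.56 with EC359, and that of ANKRD1 to CTGF was 0.463 and 0.442 against 0.599 and 0.579. The ratio of CTGF to CYR61 was 0.831 and 0.859 with vehicle and 0.944 and 0.966 with EC359. In each pair the treatments did not overlap, but the share of all gene pairs without overlap was not computed. Of single tested genes, 26.1% had both EC359 libraries above both vehicle libraries and 25.4% had both below. The ratios with ANKRD1 hold the same difference that chose the set, and nothing is read from any of these ratios.

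AXL encodes a receptor tyrosine kinase of the TAM family, whose ligand is GAS6. At 41725128 to 41767671 on chromosome 19 (GRCh37), AXL had 17132 and 17344 normalized counts in the vehicle libraries and 16467 and 16622 in the EC359 libraries. Both EC359 libraries were below both vehicle libraries, but by little (log2 fold change -0.06, standard error 0.029, adjusted p = 0.275), and AXL was not called. Of the related receptors, TYRO3 was at 3.84 RPKM with vehicle and MERTK at 1.17, against 129 for AXL. GAS6 was at 21.2 RPKM with vehicle and 23.2 with EC359 (log2 fold change 0.13, adjusted p = 0.174).

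Among the feedback regulators, AMOTL2 had the largest difference. It encodes an angiomotin-like protein that binds YAP and holds it outside the nucleus, and its gene is at 134074189 to 134094321 on chromosome 3 (GRCh37). Its normalized counts were 12610 and 13923 in the vehicle libraries and 14884 and 15311 in the EC359 libraries. The EC359 libraries were above both vehicle libraries, with the vehicle libraries farther from each other than the EC359 libraries were (log2 fold change 0.19, standard error 0.044, adjusted p = 0.0416), and AMOTL2 was not called. It was called with DESeq2 (log2 fold change 0.185, adjusted p = 0.00978) and with the GC trend removed (0.22, adjusted p = 2.17e-06). Those fits called 230 and 1090 of the 12706 tested genes. Without vehicle replicate 2 the log2 fold change was 0.25 and without vehicle replicate 1 it was 0.12, again with the spread taken from the EC359 pair.

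LATS2, a kinase that phosphorylates YAP and TAZ, had 575 and 644 normalized counts in the vehicle libraries and 702 and 632 in the EC359 libraries (chromosome 13 of GRCh37, from 21547175 to 21635725). The treatments overlapped, and the log2 fold change of 0.13 had a standard error of 0.084 (adjusted p = 0.401). Leaving out vehicle replicate 1 or EC359 replicate 1 brought it to 0.05, leaving out vehicle replicate 2 to 0.21 and leaving out EC359 replicate 2 to 0.205. AJUBA, a LIM domain protein that holds LATS kinases in check, had 4530 and 4627 normalized counts in the vehicle libraries and 4725 and 4899 in the EC359 libraries (chromosome 14 of GRCh37, from 23440386 to 23451760). Its EC359 libraries lay above its vehicle libraries by a small amount (log2 fold change 0.07, standard error 0.037, adjusted p = 0.295), without a call.

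Of the factors, YAP1 had 26302 and 25372 normalized counts in the vehicle libraries and 25871 and 25417 in the EC359 libraries (chromosome 11 of GRCh37, from 101981178 to 102104155). The libraries of the treatments overlapped, and the log2 fold change was -0.01 (standard error 0.031, adjusted p = 0.882), turning to 0.01 with total counts only. TEAD1, on the same chromosome and build from 12695968 to 12966284, had 5408 and 5180 normalized counts in the vehicle libraries and 5397 and 5065 in the EC359 libraries. Again the treatments overlapped, with a log2 fold change of -0.02 (standard error 0.042, adjusted p = 0.858) that turned to 0.01 with total counts only. WWTR1, whose product TAZ is a different gene product from the table's TAZ row (tafazzin), is at 149235022 to 149454501 on chromosome 3 (GRCh37). It had 1987 and 1943 normalized counts in the vehicle libraries and 1806 and 1802 in the EC359 libraries, and both EC359 libraries lay below the vehicle libraries (log2 fold change -0.12, standard error 0.047, adjusted p = 0.164), with no call. The ratio of WWTR1 to YAP1 counts was 0.0756 and 0.0766 with vehicle and 0.0698 and 0.0709 with EC359, so these ratios did not overlap between treatments. The share of all gene pairs without overlap was not computed, and nothing is read from this ratio.

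Some members share sequence with other annotated transcripts. The shares of 50-base windows found in any other gene were 10.5% for YAP1, 9.88% for WWTR1 and 5.77% for CTGF. The most frequent partner was WWTR1-AS1 for WWTR1 and LINC01013 for CTGF, each on the opposite strand. The library kit keeps strand, but the strand setting of the counting was not given in the sources used here, so reads of overlapping genes are uncertain. WWTR1-AS1 had from 3 to 10 reads per library.

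**Figure D3:**
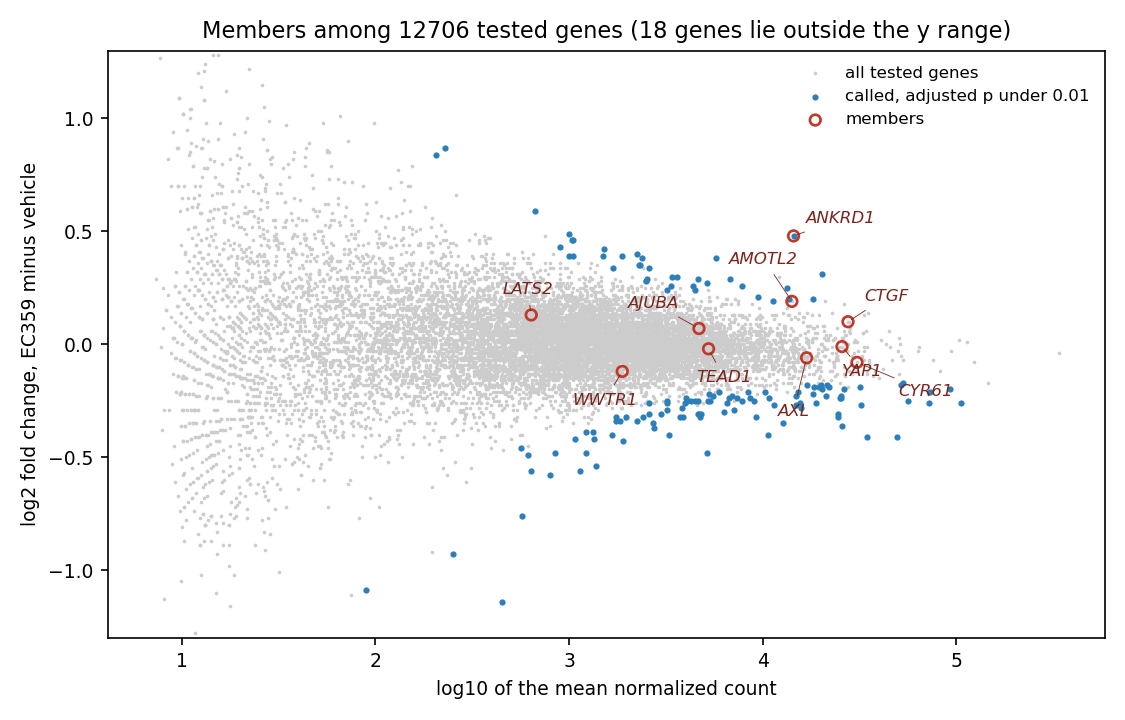
Log2 fold change of EC359 over vehicle against mean normalized count (log10) for the tested genes, in grey (18 of 12706 lie outside the plotted range), with called genes in blue and the 10 members circled in red. ANKRD1, at 0.48, is circled on a blue point, and the other 9 members lie from -0.12 to 0.19.

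Further targets of YAP were taken from a list of 20 genes written from general knowledge, of which 19 were tested. By edgeR's quasi-likelihood test 1 was called higher and 0 lower, against 0.299% and 0.795% of all tested genes, and at an unadjusted p under 0.05 there were 5 higher and 6 lower, beside 10.7% and 11%. The list median was -0.013, beside 0.003 over all tested genes. Earlier results of these data were known when this and the other lists were chosen, so the counts are a description. The called gene was THBS1, which encodes the matrix glycoprotein thrombospondin 1 and is at 39873280 to 39891667 on chromosome 15 (GRCh37). THBS1 had 1318 and 1292 normalized counts in the vehicle libraries and 1739 and 1748 in the EC359 libraries. Replicates were nearly equal and the treatments far apart (log2 fold change 0.42, standard error 0.051, adjusted p = 0.00275), with THBS1 higher in both EC359 libraries. At an adjusted p between 0.01 and 0.05 stood CCDC80 (-0.20, adjusted p = 0.0116), a secreted matrix protein, F3 (0.23, adjusted p = 0.0366), which encodes tissue factor, and NT5E (0.13, adjusted p = 0.0394), the ecto-nucleotidase CD73. The count for this list was 9, with 5 higher and 4 lower, when the GC trend was removed. Over all 12706 tested genes that fit called 1090, with 427 higher and 663 lower.

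Other TEAD genes and cofactors gave no call by edgeR's quasi-likelihood test at an adjusted p under 0.01, which 1.09% of all tested genes passed. With the GC trend removed 1 was called, beside 1090 of all 12706 tested genes. The list held 7 genes, of which 6 were tested and 0 were called by edgeR's quasi-likelihood test, DESeq2 or limma voom, with 1 gene higher and 0 lower at an unadjusted p under 0.05, beside 10.7% and 11% of all tested genes. Its median log2 fold change was -0.090, beside 0.003. TEAD4 was at 16 and 17.5 RPKM in the vehicle libraries, below TEAD1 at 20.3 and 19.5, with TEAD3 at 4.39 and 5.12 and TEAD2 at 1.81 and 1.7. VGLL4, which competes with YAP for TEAD binding, had a log2 fold change of 0.16 (adjusted p = 0.103), and 41.5% of its 50-base windows also occur in transcripts of other genes, most often ATG7. The log2 fold changes of TEAD2, TEAD3 and VGLL2 were -0.20, -0.16 and -0.19 (adjusted p = 0.492, 0.379 and 0.429). In these 3 of the 6 tested genes both EC359 libraries lay below both vehicle libraries, and in 1 they lay above. Among all tested genes 25.4% and 26.1% had these separations.

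Regulators upstream of YAP were examined in the same way, with 39 genes for the kinase cascade, its adaptors, junction proteins and the STRIPAK phosphatase complex. Of these, 36 were tested and 0 were called by edgeR's quasi-likelihood test, DESeq2 or limma voom, with 1.09% of all tested genes called by the first. At an unadjusted p under 0.05, 9 were higher and 2 lower, beside 10.7% and 11% of all tested genes. The median log2 fold change was 0.033 beside 0.003 over all tested genes, with 26 of 36 above 0 beside 6476 of 12706. STK3, which encodes the core kinase MST2, had 1085 and 1106 normalized counts in the vehicle libraries and 1366 and 1310 in the EC359 libraries (log2 fold change 0.29, standard error 0.057, adjusted p = 0.0207). Its libraries were clearly separated by treatment, but it did not pass 0.01. For STK4, which encodes MST1, the log2 fold change was 0.03 (adjusted p = 0.624), and for LATS1 it was 0.03 (adjusted p = 0.811). After STK3, the lowest adjusted p values were those of the kinase gene TNIK (0.24, adjusted p = 0.0366), FRMD6, a cortical activator of Hippo kinases (-0.13, adjusted p = 0.0514), and the kinase gene MAP4K4 (-0.12, adjusted p = 0.0668). With the GC trend removed, 5 regulators were called, 3 higher and 2 lower, beside 427 higher and 663 lower of all 12706 tested genes.

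CTGF, CYR61 and ANKRD1 are also targets of SRF, a second factor that responds to actin, so a list of 15 SRF and actin genes was set beside them. Of the 13 tested, 0 were called higher and 1 lower by edgeR's quasi-likelihood test, beside 0.299% and 0.795% of all tested genes. At an unadjusted p under 0.05 there were 1 higher and 3 lower, beside 10.7% and 11%, and the median was 0.013 beside 0.003. ACTG1, which encodes cytoplasmic gamma actin, had 76531 and 80211 normalized counts in the vehicle libraries and 66706 and 68892 in the EC359 libraries. It was called lower (log2 fold change -0.21, standard error 0.032, adjusted p = 0.00677). With total counts only, ACTG1 was not called. ACTB and SRF had log2 fold changes of -0.12 and -0.14 (adjusted p = 0.0748 and 0.12). CNN2, an actin-binding calponin, had 0.14 (adjusted p = 0.117). The smooth muscle genes TAGLN and MYL9 were too low to be tested.

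**Figure D4:**
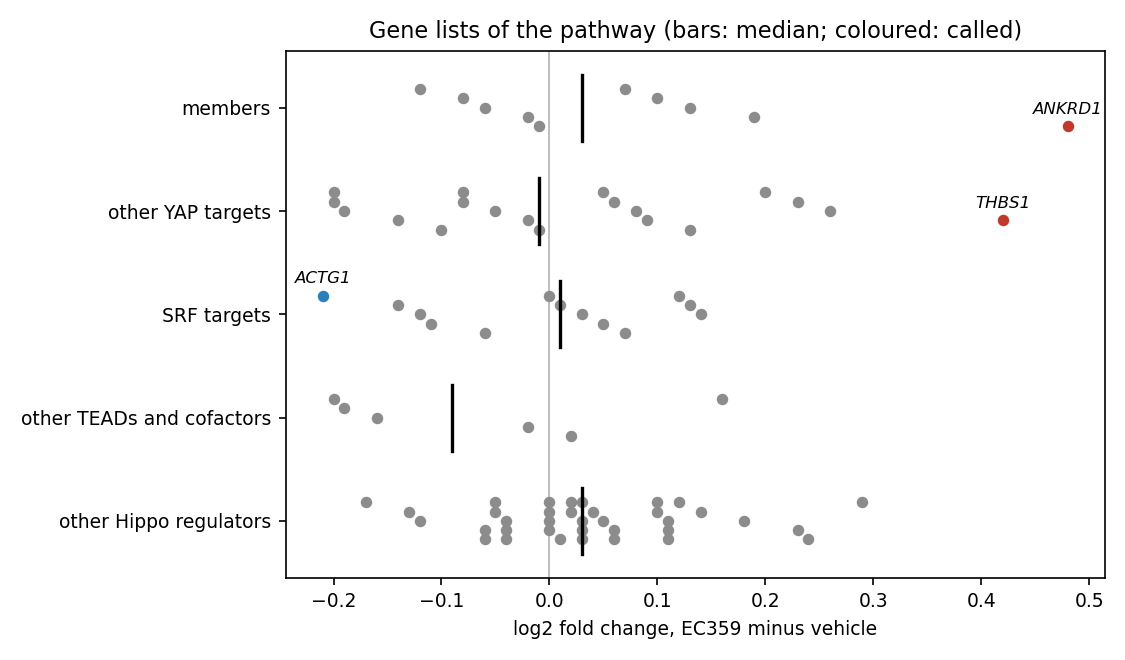
Log2 fold change of EC359 over vehicle for the tested genes of 5 lists, 1 point per gene, with the list median as a black bar, genes called higher in red and called lower in blue. ANKRD1 and THBS1 lie to the right of all other points, at 0.48 and 0.42, and ACTG1 at -0.21 is the called gene on the left.

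Close relatives were less abundant than the member they resemble, by little for LATS1 (3.57 and 3.62 RPKM with vehicle, against 3.67 and 4.12 for LATS2). NOV, of the CCN family, was at 10.7 and 9.59 RPKM in the vehicle libraries and 9.63 and 9.97 with EC359 (log2 fold change -0.05, adjusted p = 0.763), while WISP1, WISP2 and WISP3 had at most 2 reads in any library. ANKRD2 had at most 1 read in any library. ANKRD23 was at 0.412 RPKM with vehicle, and 92.3% of its 50-base windows also occur in transcripts of other genes. AMOTL1 stood at 19.8 RPKM with vehicle against 96.6 for AMOTL2, and AMOT had 2 reads in 1 library and 0 in the others. PROS1, the TYRO3 and MERTK ligand protein S, had a log2 fold change of 0.13 (adjusted p = 0.273).

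The 5 genes whose profile over the 4 libraries was nearest to that of ANKRD1 were FAM111A, MND1, SPOCK1, CCDC70 and PLSCR4, out of 11204 genes with at least 50 normalized counts. Nearness was the root mean square difference of log2 values after the vehicle mean was taken off, and it was 0.023, 0.027, 0.031, 0.033 and 0.035. FAM111A, which encodes a protease with a role in DNA replication, had 896 and 868 normalized counts in the vehicle libraries and 1213 and 1206 in the EC359 libraries (log2 fold change 0.46, standard error 0.059, adjusted p = 0.00333) and was called. MND1, a meiotic recombination gene, and SPOCK1, a matrix proteoglycan gene, had log2 fold changes of 0.45 and 0.46 (adjusted p = 0.0193 and 0.0237) and were not called. CCDC70 and PLSCR4 had 0.45 and 0.50 (adjusted p = 0.215 and 0.0942 by edgeR's quasi-likelihood test), also without a call. The 5 were picked by likeness to ANKRD1 over these same libraries. Their log2 fold changes follow from that choice, and nothing is read from them or their tests. None of the 5 is on the lists of YAP targets or regulators.

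**Figure D5:**
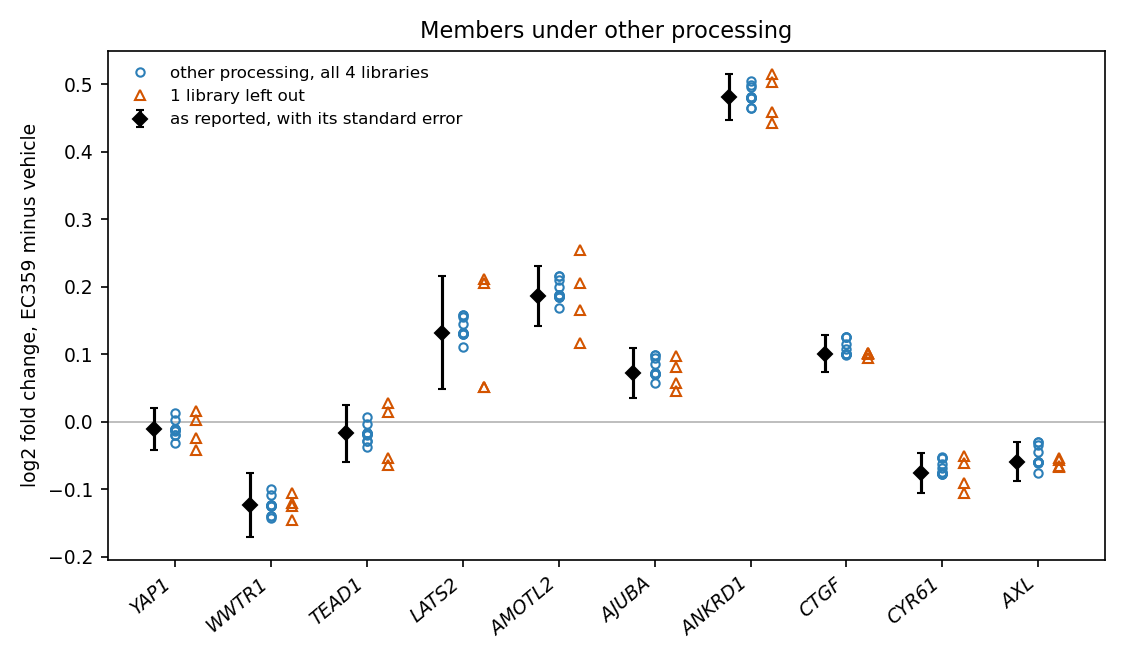
Log2 fold change of each member as reported (black, with its standard error), under 11 other ways of processing all 4 libraries (blue circles) and with 1 library left out (orange triangles). ANKRD1 stays between 0.44 and 0.52, while the values of YAP1 and TEAD1 fall on both sides of 0.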

How the data were processed

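RNA of ES2 cells was measured in 2 libraries with EC359 and 2 with vehicle. The authors mapped single-end reads of 50 bases with TopHat2 (2.0.8b in the submitters' processing notes) on the hg19 build, then used HTSeq and RefSeq genes for counting. What was deposited is a raw count for each gene symbol. Rows naming no gene were left out, and of these the row for reads outside genes held 10.9% to 12% and that for ambiguous reads 0.852% to 0.879%.

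Genes were filtered with filterByExpr (minimum count 10, minimum total 15), given TMM factors, and compared by edgeR 4.0.16 in R 4.3.3 (quasi-likelihood test, Benjamini-Hochberg adjustment over all 12706 tested genes, called under 0.01, no replicate block). Each standard error is the size of the log2 fold change over the root of its F value. RPKM used the GENCODE canonical transcript on GRCh37, the assembly UCSC names hg19, and 91.8% of symbols matched. Replicates differed by more than sampling noise (chi-square per degree of freedom was 3.78 in vehicle and 2.69 in EC359 libraries) and each is 1 replicate. Tests were tried on counts simulated from the model of the fit, without a GC trend or a replicate effect, so the simulation does not cover these.

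The members and lists were chosen with earlier results of these data known. Named were all members, in each other list every called gene or otherwise the 4 lowest adjusted p values, the family members, and the 5 genes nearest to ANKRD1. Genes between 0.01 and 0.05 in the target list and the next lowest of the SRF list were named after their values were seen. Alternatives included DESeq2 1.42.0 and limma 3.58.1 (voom). The GC trend removed together with the replicate block was chosen after seeing the data.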

Additional observations from a re-analysis of the deposited data

How the results depend on the processing

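The sign of the log2 fold change held for ANKRD1, AMOTL2, CTGF, LATS2, AJUBA, WWTR1, CYR61 and AXL in all alternatives. YAP1 turned positive with total counts only (0.013), with total counts without the 100 most abundant genes (0.003), without vehicle replicate 1 (0.016) and without EC359 replicate 2 (0.002), and ran from -0.042 to 0.016 with 1 library left out. TEAD1 turned positive with total counts only (0.007), without vehicle replicate 1 (0.015) and without EC359 replicate 2 (0.028), and ran from -0.064 to 0.028. ANKRD1 was called in all 11 alternatives that used 4 libraries, and with 1 library left out its log2 fold change ran from 0.44 to 0.52. These fits reuse the values that chose the set, so nothing is read from how often ANKRD1 was called.

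Counts of calls depended on the processing. DESeq2 called 230 genes, 2 members and 2 other targets. No filter left 61 genes and 0 SRF targets, as did total counts only for SRF targets (0). With the length trend removed, 2 other targets were called. An adjusted p under 0.05 gave 549 genes, 2 members, 4 other targets and 2 regulators. With the GC trend removed there were 1090 genes (427 higher, 663 lower), 3 members, 9 other targets, 5 regulators, 1 TEAD cofactor and 4 SRF targets. With 1 library left out the counts ran from 0 to 539 genes, 0 to 2 members, 0 to 3 other targets, 0 to 3 regulators and 0 to 3 SRF targets. Leaving out EC359 replicate 1 gave 0 genes and leaving out EC359 replicate 2 gave 2, none of them a member or on these lists, while leaving out vehicle replicate 1 or 2 gave 390 and 539. Those fits use fewer samples, with the spread taken from the treatment that kept both libraries, and for the remaining shifts the cause was not tested.

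Replicate numbers are shared by the treatments, which no label ties to a shared batch, and deviations of same-numbered libraries correlated at 0.112 across genes. A replicate block called 1539 genes (692 higher, 847 lower), 4 members (ANKRD1, AMOTL2 and CTGF higher, CYR61 lower at an adjusted p of 0.00175), 9 other targets, 5 regulators, 1 TEAD cofactor and 5 SRF targets. The block together with the GC trend removed called 1961 genes, 6 members (these 4, AJUBA higher and WWTR1 lower), 10 other targets, 7 regulators, 1 TEAD cofactor and 7 SRF targets.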
